A study of Mus musculus with 4 samples.

Results

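The 10 genes described here mark the endothelium, the cell layer that lines blood vessels, and they were taken from the count tables by their symbols. They were Pecam1, Cdh5 and Cldn5, which encode junction proteins, Kdr, Flt1, Tek and Tie1, which encode receptors for vessel growth factors or their relatives, and Eng, Emcn and Vwf. All 10 were among the 24421 genes of the tables, and all 10 passed the filter on low counts that left 13669 genes. RNA was sequenced from J558 allografts, tumours that grew after cells of this mouse plasmacytoma line were placed under the skin of female BALB/c mice, which the study lists at 4 weeks of age. The Vehicle group (n = 2) received 0.5% methylcellulose and the TAK-931 group (n = 2) received TAK-931, an inhibitor of the replication kinase CDC7, at 60 mg/kg once daily, with sampling on day 6. The labels give no genetic modification in either group, and both groups share the cell line, strain and sex. Each library was made from a whole tumour, so a change in the number of endothelial cells and one in their RNA per cell cannot be told apart. The comparison asked how the vessel genes of the tumour differed between the treatments.

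Endothelial cells are joined by VE-cadherin (Cdh5), claudin-5 (Cldn5) and PECAM-1, also called CD31 (Pecam1). Growth of vessels is driven by ligands of the VEGF family acting on VEGFR2 (Kdr), while VEGFR1 (Flt1) binds VEGF tightly with weaker signalling. Angiopoietins act on TIE2 (Tek), and TIE1 (Tie1) is a related receptor that modulates it. Endoglin (Eng) is a co-receptor for ligands of the TGF-beta and BMP families, endomucin (Emcn) is a surface sialomucin of capillaries and veins, and von Willebrand factor (Vwf) is the large adhesive protein that endothelial cells store for haemostasis.

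The libraries held between 16487902 and 19589339 counts. The Vehicle libraries were alike (biological coefficient of variation 0.132), whereas TAK-931-1 and TAK-931-2 were not (0.579). The comparisons of these libraries with vehicle are therefore given side by side. They share the same Vehicle libraries. For tissue staining, gene set analysis of bulk RNA and single-cell work, the study drew on the tumours of Vehicle-1 and of TAK-931-1. Markers of other cells also differed between the libraries. The summed level of 8 leukocyte genes was 317 and 264 CPM (counts relative to the scaled library size) in the Vehicle libraries, 5323 in TAK-931-1 against 839 in TAK-931-2, and that of 7 plasma cell genes was 8980 and 9524, then 4503 and 11976. Without Jchain, the most abundant of them, the other 6 plasma cell genes summed to 3899.7 and 3866 CPM, then 1366 and 3852 CPM, so that TAK-931-2 was near the vehicle level. The part of these differences in the results below was not tested.

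The endothelial genes as a whole were higher in TAK-931-1 and near the vehicle level in TAK-931-2. Their summed level per kilobase of exon was 87.7 and 99.0 CPM per kilobase in Vehicle-1 and Vehicle-2, 318 in TAK-931-1 against 91.6 in TAK-931-2. TAK-931-1 was thus 3.40-fold the vehicle mean, and TAK-931-2 was 0.981-fold. TAK-931-1 lay above both Vehicle libraries in 10 of the 10 genes, as 46.1% of all tested genes did. TAK-931-2 lay above both in 4 of the 10 (Vwf, Kdr, Eng and Cdh5), where 42.3% of all genes did, and below both in 5 (Pecam1, Tek, Tie1, Emcn and Cldn5), where 44.4% did. Flt1 of TAK-931-2 lay between the Vehicle libraries. The median log2 ratio to vehicle over the 10 genes was 1.95 in TAK-931-1 against −0.04 in TAK-931-2, beside −0.02 and −0.01 over all genes tested.

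Treatment was compared by edgeR's quasi-likelihood test fitted across all genes. None of the 10 genes passed an adjusted p of 0.05, nor did any other gene (0% of all tested). By unadjusted p under 0.05, 3 of the 10 were higher (Vwf, Eng and Kdr), against 11.6% of all genes, and 0 were lower, against 6.55%. The median fitted log2 fold change of the 10 genes was 1.15, beside 0.02 over all genes. A fitted log2 fold change over 1.5 was reached by 4 genes, against 16.8% of all genes. The groups did not overlap in the same 4 genes, Vwf, Eng, Kdr and Cdh5, all higher with TAK-931 (30.0% of all genes were), and 0 of the 10 were lower without overlap (32.7% of all genes were). DESeq2 called 2 of the 10, Vwf and Eng, as higher at an adjusted p under 0.05, where it called 9.78% of the genes it adjusted. With 2 libraries against 2, an exact permutation test of a single value cannot go below a p of 0.333.

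**Figure D1:**
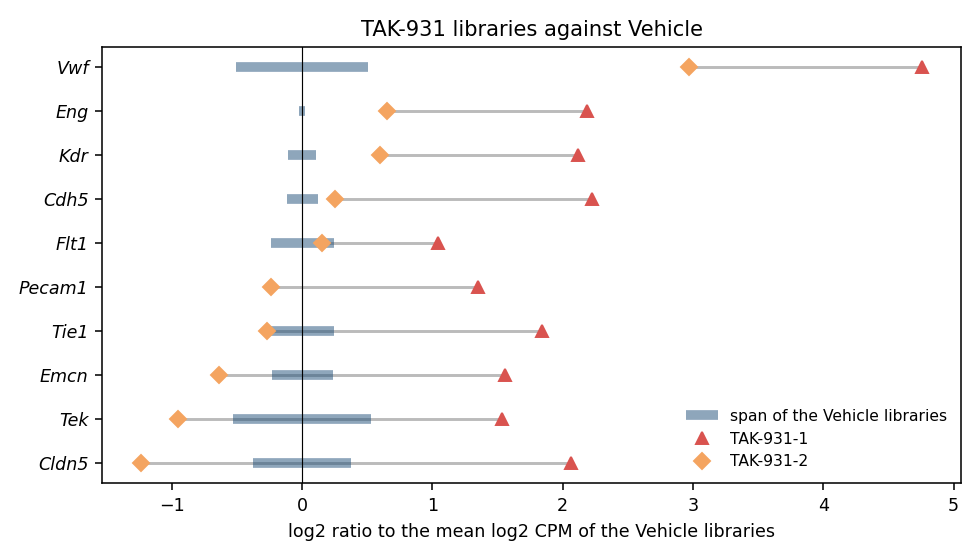
Log2 ratio of each TAK-931 library to the mean log2 CPM of the Vehicle libraries, for the 10 endothelial genes ordered by TAK-931-2, with bars for the span of the Vehicle libraries. All triangles (TAK-931-1) lie right of the bars, whereas the diamonds (TAK-931-2) run from −1.23 for Cldn5 to 2.97 for Vwf.

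Vwf stood apart from the other members. It had 0.712 and 1.56 CPM in Vehicle-1 and Vehicle-2, 31.7 CPM in TAK-931-1 against 9.10 in TAK-931-2. Both TAK-931 libraries were far above both Vehicle libraries, at 27.9-fold and 8.02-fold the vehicle mean. The fit gave a log2 fold change of 4.16 (SE 0.90), and the adjusted p was 0.275 by edgeR against 4.0e-05 by DESeq2. As large a ratio was found for 1.36% of all tested genes in TAK-931-1, but for 0.710% in TAK-931-2. In all, 55 genes, Vwf included, were at or above it in both. The vehicle level rests on few counts, 12 in Vehicle-1 (exact 95% Poisson interval 6.20 to 21.0) and 26 in Vehicle-2 (17.0 to 38.1). The TAK-931 libraries had 602 and 156. The intervals cover counting error only, and are too narrow if mates were counted singly.

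Vwf is also made by megakaryocytes and carried by platelets, so genes of that lineage were read beside it. Itga2b, which encodes the platelet integrin subunit, had 4.39, 5.15, 4.53 and 4.32 CPM in Vehicle-1, Vehicle-2, TAK-931-1 and TAK-931-2. Gp1bb and Gp6, which encode platelet receptor subunits, had 0 counts in all 4 libraries, where a count of 0 allows up to 0.158 to 0.180 CPM. Itgb3 (10.4, 7.19, 57.3 and 10.7 CPM) and Pf4 (3.32, 7.55, 33.4 and 8.99 CPM), the most abundant genes of the 8 on the platelet list, are also made by other cells. Gp9, a subunit of a platelet receptor for von Willebrand factor, had 1.30, 1.20, 2.21 and 2.68 CPM, and Gp1ba, another subunit of it, had 0.534, 1.20, 0.790 and 2.10 CPM, which is 2.42-fold the vehicle mean in TAK-931-2. Of the 5 genes that could be tested, 3 (Itgb3, Pf4 and Gp9) were higher without overlap, where 30.0% of all genes were. By unadjusted p under 0.05 in edgeR, 0 of the 5 were called, beside 11.6% of all genes higher and 6.55% lower. The summed level of the list was between 20.2 and 22.7 CPM in the Vehicle libraries and 99.2 and 29.2 CPM in TAK-931-1 and TAK-931-2. The part of platelets and megakaryocytes in the Vwf values was not tested.

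Among the receptors, Kdr and Eng were higher in both TAK-931 libraries. Kdr (VEGFR2) had 22.8 and 19.6 CPM in the Vehicle libraries, 92.2 CPM in TAK-931-1 against 32.1 in TAK-931-2. The groups did not overlap, and the log2 fold change was 1.55 (SE 0.56, adjusted p by edgeR 0.275 and by DESeq2 0.0643). Flt1 (VEGFR1) had 16.6 and 23.3 CPM in the Vehicle libraries, 40.6 CPM in TAK-931-1 against 21.9 in TAK-931-2, so TAK-931-2 lay inside the vehicle range. The fit gave 0.65 (SE 0.42) on the log2 scale, with an adjusted p by edgeR of 0.398. The level of Kdr per kilobase was 1.58-fold and 0.971-fold that of Flt1 in Vehicle-1 and Vehicle-2, 2.62-fold in TAK-931-1 against 1.69-fold in TAK-931-2.

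Eng, the BMP and TGF-beta co-receptor, had 36.6 and 35.4 CPM in the Vehicle libraries, 164 CPM in TAK-931-1 against 56.4 in TAK-931-2. The Vehicle libraries were close together (SD 0.864 CPM, n = 2), and both TAK-931 libraries lay above them. The fit gave 1.61 (SE 0.56) on the log2 scale, and the adjusted p was 0.275 by edgeR against 0.0432 by DESeq2. The summed leukocyte genes (18.3-fold and 2.89-fold) and fibroblast genes (7.48-fold and 2.59-fold) were also above the vehicle mean in both. The part of those cells in the Eng values was not tested. Exons of Eng overlap Fpgs on the other strand over 1.71% of the exon length of Eng in GENCODE, and strand use in counting is not given, so those few bases could carry reads of either gene. No exon of the other 9 genes overlapped another gene.

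Tek and its relative Tie1 were above both Vehicle libraries in TAK-931-1 but not in TAK-931-2. Tek (TIE2) had 4.03 and 8.51 CPM in the Vehicle libraries, 17.2 CPM in TAK-931-1 against 2.98 in TAK-931-2. TAK-931-1 was highest and TAK-931-2 lowest of the 4, and the Vehicle libraries themselves differed 2.11-fold. Tie1 had 24.0 and 33.8 CPM in the Vehicle libraries, 102 CPM in TAK-931-1 against 23.6 in TAK-931-2, the last just under Vehicle-1. The log2 fold changes were 0.68 (SE 0.98) for Tek and 1.12 (SE 0.75) for Tie1, with adjusted p by edgeR of 0.685 and 0.408.

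The junction genes did not share a direction in TAK-931-2. Cdh5 had 58.3 and 68.9 CPM in the Vehicle libraries, 297 CPM in TAK-931-1 against 75.6 in TAK-931-2, without overlap between the groups (log2 fold change 1.55, SE 0.70, adjusted p by edgeR 0.299). In TAK-931-2 it was only 1.19-fold the vehicle mean. Pecam1 was nearly equal in the Vehicle libraries, with 126.4 and 125.8 CPM, and had 322 CPM in TAK-931-1 against 107 in TAK-931-2. The fit gave 0.77 (SE 0.57, adjusted p by edgeR 0.450) on the log2 scale. Pecam1 is also made by leukocytes, whose marker genes were by their sum 18.3-fold the vehicle mean in TAK-931-1, against 2.89-fold in TAK-931-2. Pecam1 itself was 2.55-fold and 0.848-fold, and the part of leukocytes in these values was not tested.

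Cldn5, the claudin of tight junctions, had 3.80 and 6.47 CPM in the Vehicle libraries, 21.1 CPM in TAK-931-1 against 2.04 in TAK-931-2. It separated the TAK-931 libraries most, with a 10.3-fold difference between them, where the other 9 genes differed between 1.85-fold and 5.77-fold. In TAK-931-2 it rested on 35 counts (exact 95% Poisson interval 24.4 to 48.7, for counting error only). Emcn, the sialomucin, had 12.1 and 16.8 CPM in the Vehicle libraries, 42.1 CPM in TAK-931-1 against 9.10 in TAK-931-2. The log2 fold changes of Cldn5 (1.17, SE 1.16) and Emcn (0.83, SE 0.79) were no larger than about their errors, with adjusted p by edgeR of 0.557 and 0.545.

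Each TAK-931 library was also fitted alone against both Vehicle libraries. These fits take their spread from the Vehicle pair and assume that the lone treated tumour varies like it, which the spread within the TAK-931 pair does not bear out. With TAK-931-1 alone, 10 of the 10 genes were higher at an adjusted p by edgeR under 0.05, as were 28.2% of all genes tested there. With TAK-931-2 alone, 3 of the 10 were higher, Vwf (adjusted p by edgeR 0.00407), Eng (0.00629) and Kdr (0.0388), as were 12.6% of all genes. In that fit 5 of the 10 had negative log2 fold changes, as did 51.5% of all genes. At an unadjusted p under 0.05, 3 of these were lower (Pecam1, Emcn and Cldn5, with log2 fold changes of −0.24, −0.67 and −1.33), beside 22.6% of all genes. At an adjusted p by edgeR under 0.05, 0 of the 10 were lower, beside 16.1% of all genes.

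**Figure D2:**
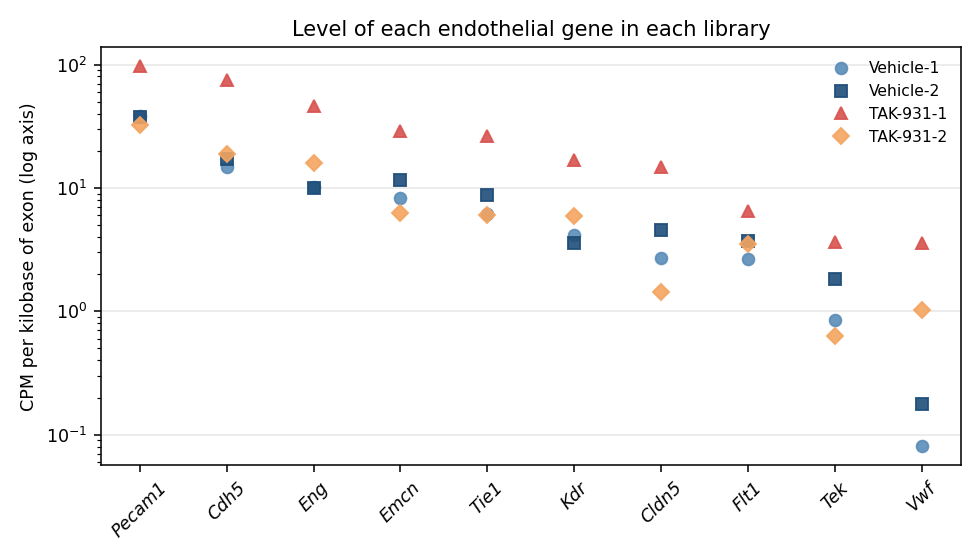
Level of each of the 10 genes in each library, as CPM per kilobase of exon on a log axis, ordered by the mean over the 4 libraries. TAK-931-1 is highest for every gene, Pecam1 is the most abundant in every library, and Vwf has the widest gap between the groups.

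The genes differed widely in level. On the scale of CPM per kilobase, the mean over the 4 libraries was 51.1 for Pecam1, 31.4 for Cdh5, 20.5 for Eng, 13.7 for Emcn, 11.8 for Tie1, 7.65 for Kdr, 5.89 for Cldn5, 4.07 for Flt1, 1.74 for Tek and 1.22 for Vwf. Pecam1 ranked first and Cdh5 second in all 4 libraries, and Tie1 also kept its rank in all 4. Neighbours further down changed places between libraries. Kdr lay above Flt1 in Vehicle-1 (4.19 and 2.64 CPM per kilobase) and slightly below it in Vehicle-2 (3.60 and 3.70). Vwf was last in 3 libraries, but in TAK-931-2, with 1.03 CPM per kilobase, it passed Tek at 0.633.

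To compare the genes with one another, each was expressed as a share of the summed CPM per kilobase of the 10. The share of Vwf was 0.0918% and 0.178% in Vehicle-1 and Vehicle-2 and nearly equal in the TAK-931 libraries, with 1.13% in TAK-931-1 against 1.12% in TAK-931-2, although the summed level of these libraries differed. Eng made up 11.7% and 10.0% in the Vehicle libraries, then 14.4% and 17.2%. Cdh5 made up 16.7% and 17.5%, then 23.5% and 20.7%, and Kdr 4.78% and 3.63%, then 5.32% and 6.43%. The shares of these 4 genes were higher in both TAK-931 libraries than in both Vehicle libraries.

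The share of Pecam1 was lower in both, from 43.2% and 38.1% in the Vehicle libraries to 30.4% in TAK-931-1 against 35.0% in TAK-931-2. Emcn was also lower in both, with 9.44% and 11.6%, then 9.08% and 6.80%, although TAK-931-1 was close to Vehicle-1. Cldn5 split the TAK-931 libraries, with 3.06% and 4.62% in the Vehicle libraries, 4.68% in TAK-931-1 against 1.57% in TAK-931-2. Shares add up to a fixed total, so a higher share of some genes lowers that of the rest, and they were not tested. As ratios chosen after these values were seen, Vwf was 0.00550 and 0.0102 of Cdh5 per kilobase in the Vehicle libraries, 0.0481 in TAK-931-1 against 0.0543 in TAK-931-2, and Tek was 0.139 and 0.208 of Tie1, then 0.138 and 0.104.

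**Figure D3:**
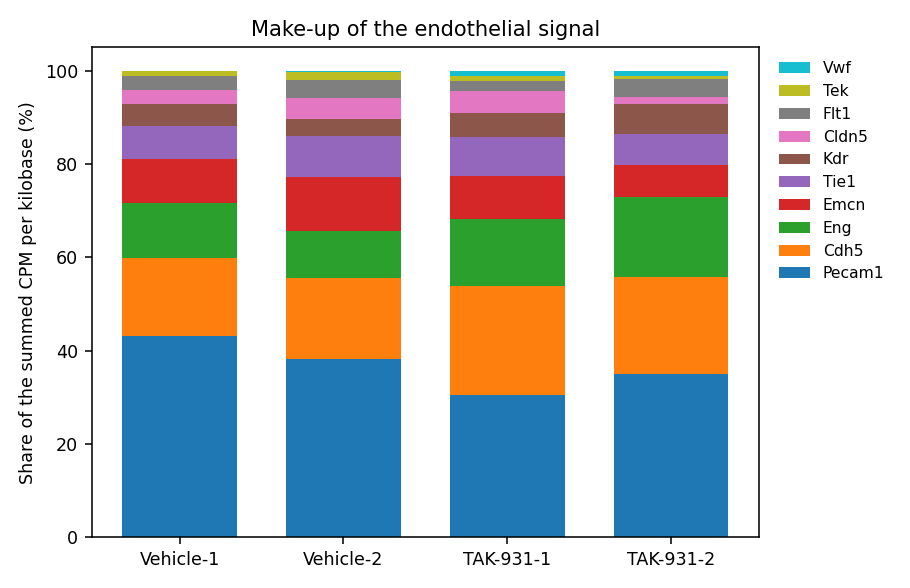
Share of each gene in the summed CPM per kilobase of the 10 endothelial genes (%), as stacked bars for the 4 libraries. The Pecam1 segment is 43.2% and 38.1% in the Vehicle libraries and 30.4% and 35.0% in the TAK-931 libraries, and the Vwf segment is 1.13% and 1.12% in the TAK-931 libraries, against 0.0918% and 0.178%.

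The 10 genes lie on 8 chromosomes (mm10, GRCm38), with Kdr and Flt1 both on chromosome 5 and Tek and Tie1 both on chromosome 4. Kdr spans 75933270 to 75978428 with 30 merged exons and Flt1 147562196 to 147725988 with 30. Tek spans 94739289 to 94874976 and Tie1 118471191 to 118489849, each with 23 merged exons. Vwf (chromosome 6, 125552948 to 125686679) has the longest summed exons, 8834 bases in 52 merged exons, and Cldn5 (chromosome 16, 18776847 to 18778262) is a single exon of 1416 bases. Pecam1 lies at chromosome 11, 106654213 to 106715281, Cdh5 at chromosome 8, 104101625 to 104144502, Emcn at chromosome 3, 137341078 to 137431069, and Eng at chromosome 2, 32646595 to 32682669.

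Endothelial genes are known to be driven by transcription factors of the ETS family, whose sites hold a GGAA core. A promoter of RefSeq (GRCm38.p6) was found for 7 of the 10 genes, and the 250 bases before its start site were searched on both strands for AGGAAG and also for its close variant, which is CGGAAG. A match was present in 4 of the 7 (Flt1, Tie1, Emcn and Eng, with 2 each), where 39.2% of 32851 promoter windows of the same length held 1. The letters AGATAA, bound by factors of the GATA family, and ACGTG, the core of hypoxia response sites, were found in 0 of the 7, where 9.99% and 16.6% of all windows held them. The 4 windows printed here are those of Eng (chr2:32646345-32646594, plus strand), which was higher in both TAK-931 libraries, Tie1 (chr4:118489850-118490099, minus strand), which was nearest to the median pattern of the members, and Tek (chr4:94739039-94739288, plus strand) and Cldn5 (chr16:18776597-18776846, plus strand), the lowest in TAK-931-2 relative to vehicle. They are given 5′ to 3′ on the strand of the gene, with the ETS-type letters in capitals.
Eng: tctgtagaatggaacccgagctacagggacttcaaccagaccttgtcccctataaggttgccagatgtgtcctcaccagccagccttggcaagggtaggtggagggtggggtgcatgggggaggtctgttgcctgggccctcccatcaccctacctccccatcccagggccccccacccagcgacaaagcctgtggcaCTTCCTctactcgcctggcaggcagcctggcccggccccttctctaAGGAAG
Tie1: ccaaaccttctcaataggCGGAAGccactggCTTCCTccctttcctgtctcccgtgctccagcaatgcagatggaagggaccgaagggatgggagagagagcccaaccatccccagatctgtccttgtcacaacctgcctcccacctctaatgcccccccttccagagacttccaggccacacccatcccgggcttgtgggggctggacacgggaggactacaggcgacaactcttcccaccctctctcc
Tek: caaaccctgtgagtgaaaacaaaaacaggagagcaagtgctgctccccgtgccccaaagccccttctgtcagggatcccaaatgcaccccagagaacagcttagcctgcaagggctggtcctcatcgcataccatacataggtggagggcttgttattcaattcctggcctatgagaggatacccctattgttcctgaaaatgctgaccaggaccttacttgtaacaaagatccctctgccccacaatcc
Cldn5: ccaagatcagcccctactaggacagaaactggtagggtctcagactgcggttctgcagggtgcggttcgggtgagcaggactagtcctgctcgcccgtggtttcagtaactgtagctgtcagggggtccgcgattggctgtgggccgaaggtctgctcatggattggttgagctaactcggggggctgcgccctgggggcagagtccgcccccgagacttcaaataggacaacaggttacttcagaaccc
The windows of Kdr, Tek and Cldn5 hold no match. A match is a string of letters and not a measured site.

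The ligands and partners of these receptors were read from lists of genes. Of the 8 genes on the list of VEGF ligands, VEGFR3 (Flt4) and neuropilins, 6 were higher in both TAK-931 libraries than in both Vehicle libraries and 1 was lower, beside 30.0% and 32.7% of all genes. By unadjusted p under 0.05 in edgeR, 2 were higher and 1 lower, beside 11.6% and 6.55% of all genes, and 0 passed after adjustment. The lower gene was Vegfa, the principal ligand of Kdr, with 150.1 and 111 CPM in the Vehicle libraries, 40.7 CPM in TAK-931-1 against 55.9 in TAK-931-2. Both TAK-931 libraries lay well below both Vehicle libraries, and the fit gave −1.43 (SE 0.29) on the log2 scale, at an adjusted p of 0.275 by edgeR and 0.00833 by DESeq2. Apart from Vegfb, near the vehicle level in both (1.05-fold and 0.923-fold), Vegfa was the gene of this list whose TAK-931 ratios lay closest together. They were 0.312-fold and 0.428-fold the vehicle mean. The part of tumour cells in the Vegfa values was not tested.

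Pgf, which encodes the placental growth factor that binds Flt1, had 1.66 and 2.28 CPM in the Vehicle libraries, 18.8 CPM in TAK-931-1 against 4.43 in TAK-931-2. Nrp2, a neuropilin, had 7.17 and 9.35 CPM, then 59.8 and 14.1 CPM. These were the 2 higher genes at an unadjusted p under 0.05, and they are named after their values were seen. Nrp1, the other neuropilin, had 16.7 and 15.2 CPM in the Vehicle libraries, 143 CPM in TAK-931-1 against 19.0 in TAK-931-2, so that it was near vehicle in TAK-931-2. Flt4, the receptor of lymphatic vessels, had 5.93 and 7.43 CPM, then 25.1 and 8.05 CPM.

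In the angiopoietin group, Angpt2, which endothelial cells release during remodelling of vessels, had 6.94 and 6.11 CPM in the Vehicle libraries, 40.7 CPM in TAK-931-1 against 15.4 in TAK-931-2. Ptprb, the vascular endothelial phosphatase that acts on Tek, had 8.66 and 9.83 CPM, then 89.9 and 18.4 CPM. Both genes were higher in both TAK-931 libraries, with log2 fold changes of 2.10 (SE 0.58) and 2.55 (SE 0.83), and both had an adjusted p of 0.275 by edgeR, against 0.00998 and 0.00978 by DESeq2. Angpt1, the activating ligand of Tek made mainly by mural cells, had 0.712 and 0.959 CPM, then 3.90 and 0.817 CPM, and overlapped between the groups. In TAK-931-2, Angpt2 was thus 2.36-fold the vehicle mean where its receptor gene Tek was 0.474-fold.

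Among the partners of endoglin, Acvrl1, which encodes the receptor ALK1, had 14.1 and 10.0 CPM in the Vehicle libraries, 82.5 CPM in TAK-931-1 against 20.9 in TAK-931-2. Tgfbr2, the type II receptor for TGF-beta that many cell types make, had 25.5 and 33.0 CPM, then 239 and 59.5 CPM. These were the 2 of 7 tested genes of this list with an unadjusted p under 0.05 (11.6% of all genes were higher by this measure), and 4 of the 7 were higher without overlap (30.0% of all genes). Bmpr2, a type II receptor for BMPs, had 38.0 and 42.9 CPM, then 53.5 and 35.2 CPM. The ligand genes Gdf2 and Bmp10, which are made mainly in liver and heart, had 0 counts in all 4 libraries.

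**Figure D4:**
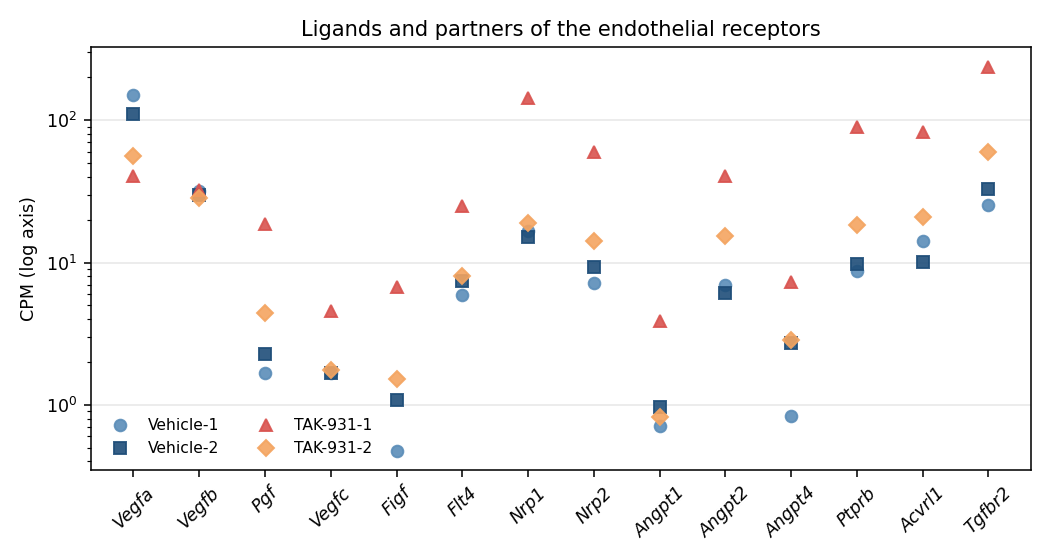
CPM of ligands, receptors and partners of the endothelial receptors in each library, on a log axis. Vegfa is lower in both TAK-931 libraries (40.7 and 55.9 CPM) than in the Vehicle libraries (150.1 and 111 CPM), while Pgf, Angpt2, Ptprb and Tgfbr2 are higher in both.

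Other genes of the vessel wall were read to see whether they followed the same pattern. In the list of 22 further endothelial genes (surface, secreted and transcription factor genes), 20 were above both Vehicle libraries in TAK-931-1, where 46.1% of all genes were. In TAK-931-2, 6 were above and 9 below, beside 42.3% and 44.4% of all genes. Its median log2 ratio to vehicle was 1.85 in TAK-931-1 against −0.09 in TAK-931-2, close to the medians of the 10 members. Plvap, which encodes the diaphragm protein of fenestrated endothelium, had 89.8 and 121 CPM in the Vehicle libraries, 353 CPM in TAK-931-1 against 91.4 in TAK-931-2. Cd93 had 30.8 and 37.3 CPM, then 258 and 37.9 CPM. By unadjusted p under 0.05 in edgeR (11.6% of all genes higher and 6.55% lower), 1 gene was higher (S1pr1, a receptor for sphingosine-1-phosphate) and 1 was lower (Rasip1, a Ras-interacting protein). Rasip1 had 87.5 and 78.6 CPM in the Vehicle libraries and 48.9 and 44.2 CPM in the TAK-931 libraries. It was, with Icam2, 1 of the 2 genes of the list that were below both Vehicle libraries in TAK-931-1. S1pr1 had 12.9 and 10.4 CPM, then 61.6 and 19.3 CPM. These 3 genes are named after their values were seen.

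Of the 9 tested genes of the Notch and arterial list, 8 were higher in both TAK-931 libraries than in both Vehicle libraries, beside 30.0% of all genes. Of these, 2 had an unadjusted p under 0.05, beside 11.6% of all genes. They were Gja5 and Jag1, named after their values were seen. Gja5, which encodes the arterial gap junction protein connexin 40, had 1.07 and 1.44 CPM in the Vehicle libraries, 20.7 CPM in TAK-931-1 against 5.95 in TAK-931-2. Jag1, a Notch ligand, had 1.54 and 4.92 CPM, then 43.0 and 7.93 CPM. Notch1, with 53.5 and 40.0 CPM, then 86.5 and 58.2 CPM, and Notch4, with 11.2 and 14.3 CPM, then 62.7 and 16.4 CPM, were the most abundant. The median log2 ratio of the list was 2.30 in TAK-931-1 against 0.37 in TAK-931-2.

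Of 6 venous and tip-cell genes, 3 were higher without overlap and at an unadjusted p under 0.05 (Apln, Nr2f2 and Ackr1, named after their values were seen), beside 30.0% and 11.6% of all genes. Nr2f2, the transcription factor of venous identity, had 1.78 and 2.22 CPM in the Vehicle libraries, then 22.5 and 4.90 CPM. Ackr1, a chemokine-binding receptor of venules, rested on few counts, at 0.474 and 0.240 CPM, then 5.16 and 1.05 CPM. Aplnr, the apelin receptor, had 32.9 and 60.8 CPM, then 95.7 and 20.9 CPM, so it was lowest in TAK-931-2, while its ligand gene Apln had 6.64 and 8.51 CPM, then 26.3 and 15.4 CPM. Ephb4 had 40.3 and 42.3 CPM, then 54.7 and 37.6 CPM.

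Of 4 genes for adhesion molecules that endothelium shows to leukocytes, 3 passed the filter. These 3 were higher without overlap (30.0% of all genes were), 1 of them, Icam1, had an unadjusted p under 0.05 (11.6% of all genes), and 0 passed after adjustment in edgeR. Icam1 had 67.1 and 58.9 CPM in the Vehicle libraries, 166 CPM in TAK-931-1 against 126.5 in TAK-931-2 (log2 fold change 1.21, SE 0.25, adjusted p by edgeR 0.275 and by DESeq2 0.00842). Vcam1 had 54.0 and 49.9 CPM, then 335 and 67.3 CPM. Both are also made by other cells. Selp, which encodes P-selectin, stored in the same granules as von Willebrand factor, had 0.415 and 1.38 CPM, then 7.48 and 2.74 CPM. The 4th gene of this list, Sele, had 0, 6, 58 and 6 counts and did not pass the filter.

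The genes most particular to lymphatic endothelium had few counts. Prox1, the transcription factor that defines lymphatic endothelium, had 0, 0, 2 and 4 counts, and Lyve1 had 1.30 and 1.32 CPM in the Vehicle libraries, then 4.53 and 0.467 CPM. Pdpn, which fibroblasts also make, had 8.30 and 10.5 CPM, then 41.4 and 17.4 CPM. Among 10 mural cell genes, 10 were above both Vehicle libraries in TAK-931-1, where 46.1% of all genes were. In TAK-931-2, 5 were above and 3 below, near the 42.3% and 44.4% of all genes. Acta2, the smooth muscle actin, had 85.2 and 139 CPM, then 162 and 89.97 CPM. Des, the desmin of mural and muscle cells, had 43.5 and 47.4 CPM, then 290.4 and 11.7 CPM.

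Markers of muscle and adipose tissue also differed between the libraries. The 8 skeletal muscle genes summed to 97.5 and 98.8 CPM in the Vehicle libraries, 802 CPM in TAK-931-1 against 18.3 in TAK-931-2, with the actin gene Acta1 at 54.4, 48.4, 344 and 0.525 CPM and the myosin gene Myh1 at 6.17, 2.64, 129 and 0 CPM. The 6 adipocyte genes summed to 45.7 and 69.1 CPM, then 267 and 28.6 CPM. Most of this is Fabp4, which capillary endothelium also makes, at 40.3, 61.4, 255 and 25.7 CPM. Cidec, a lipid droplet gene and the next most abundant, was instead lower in both TAK-931 libraries, with 4.51 and 5.81 CPM, then 3.58 and 2.68 CPM. Pecam1, Tek, Tie1, Emcn and Cldn5 were, like the sums of these lists, highest in TAK-931-1 and lowest in TAK-931-2, whereas Vwf, Kdr, Eng and Cdh5 were above vehicle in both. So were the 5 fibroblast genes by their sum, with 1239 and 1385 CPM, then 9815 and 3395 CPM. The collagen genes Col1a1, with 701 and 740.1 CPM, then 5945 and 2107 CPM, and Col3a1, with 499.9 and 597 CPM, then 3407 and 1217 CPM, made up most of it. Among 8 genes of the hypoxia response, 3 were higher and 4 lower without overlap, beside 30.0% and 32.7% of all genes, and the median log2 fold change was 0.03. The most abundant, Ldha of lactate production and Pgk1 of glycolysis, had 1121 and 1066 CPM, then 748 and 765 CPM, and 651 and 628 CPM, then 436 and 602 CPM. By unadjusted p under 0.05 in edgeR, 1 gene of the list was called, beside 11.6% of all genes higher and 6.55% lower. This was Adm, which encodes the vasoactive peptide adrenomedullin, higher in both TAK-931 libraries. It had 2.02 and 3.72 CPM, then 17.8 and 10.7 CPM, with an adjusted p of 0.275 by edgeR and 0.00443 by DESeq2. Of the leukocyte genes, 8 of 8 were higher without overlap (30.0% of all genes), with the myeloid lysozyme gene Lyz2 at 158.5 and 139.6 CPM, then 2742 and 389 CPM, and Ptprc, the pan-leukocyte antigen, at 36.6 and 20.8 CPM, then 633 and 128 CPM. Of the plasma cell genes, 3 of 7 were lower without overlap, beside 32.7% of all genes. They were Xbp1, with 1059 and 1059 CPM, then 377 and 972 CPM, Mzb1, with 799 and 812 CPM, then 285 and 777 CPM, and Sdc1, with 696 and 692 CPM, then 241 and 588 CPM, named after their values were seen. Jchain, the joining chain of immunoglobulins, had 5080.2 and 5658 CPM, then 3136 and 8124 CPM, and Trap1a, a tumour antigen gene, had 1127 and 1095 CPM, then 356 and 1235 CPM. The part of muscle, adipose tissue, leukocytes, fibroblasts and plasma cells in the endothelial values was not tested.

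**Figure D5:**
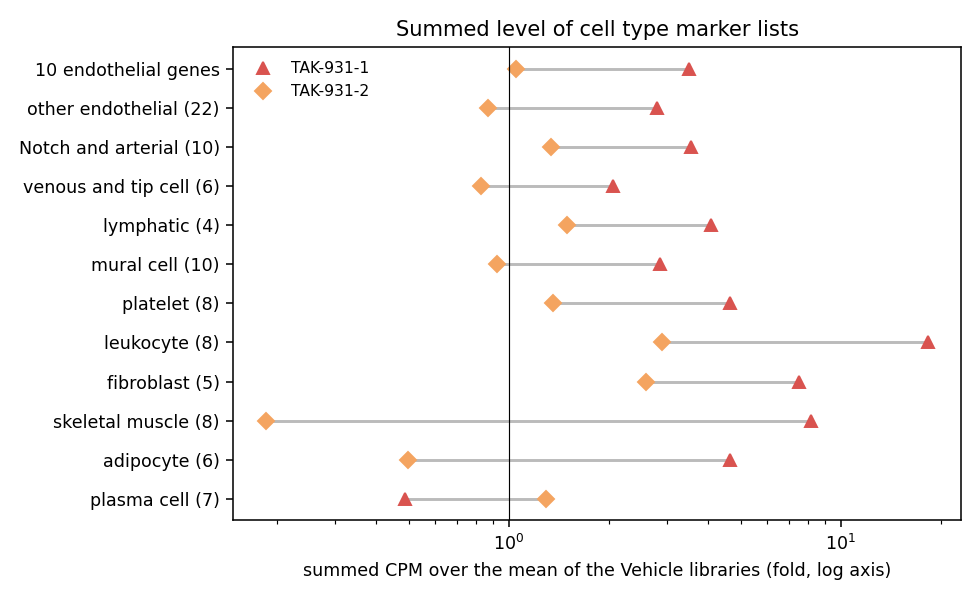
Summed CPM of marker lists in each TAK-931 library as a fold of the mean of the Vehicle libraries, on a log axis, with the number of genes listed in brackets. The 10 endothelial genes lie at 3.50-fold in TAK-931-1 against 1.05-fold in TAK-931-2, the leukocyte list lies at 18.3-fold and 2.89-fold, and the skeletal muscle list lies on opposite sides of 1.

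Genes outside the list were ranked by how close their pattern over the 4 libraries was to the median pattern of the 10 members, as a root mean square distance of centred log2 CPM among genes with a mean log2 CPM over 3. The 5 nearest were Esam (distance 0.0802), Plvap (0.0813), Lamb1 (0.0814), P4ha3 (0.0905) and Kctd17 (0.0917). Esam encodes an adhesion molecule of endothelial junctions, and Lamb1 a laminin chain of basement membranes. Esam had 22.9 and 31.3 CPM in the Vehicle libraries, 102 CPM in TAK-931-1 against 24.2 in TAK-931-2. Of the members, Tie1 was nearest to their median pattern (0.117) and Vwf farthest (1.49). With 4 libraries, this likeness mainly records which library was highest.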

How the data were processed

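Total RNA of 4 J558 allografts was sequenced by the study. The authors deposited 1 table of raw read counts per gene for each library, made with featureCounts from uniquely placed alignments. The submitters' processing notes name STAR 2.6.1c and mm10. The annotation, strand and pair settings are not given in the sources used here. Another deposited column, of another unit, holds the summed exon length per gene. Odd values made up 17.9% to 23.9% of the counts between 1 and 20, so mates may have been counted singly, and intervals and floors, which cover counting error only, are too narrow.

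Low counts were filtered with edgeR 4.0.16 (filterByExpr, minimum count 10), and scaling was by TMM. TAK-931 was compared with Vehicle with the quasi-likelihood test of edgeR (robust, two-sided, under R 4.3.3) with Benjamini-Hochberg adjustment over all genes. SE is the log2 fold change over the root of F. Ratios of single libraries used log2 CPM with a prior count of 2, and fold values used CPM. DESeq2 1.42.0 and limma-voom (limma 3.58.1) were alternatives, beside other scalings, filters, a replicate block, halved counts and each library left out. The test was checked on simulated counts with the same spread in both groups, unlike these libraries. The labels describe independent samples, and the p-values measure the spread between these. The counts of each pair differed beyond sampling noise (chi-square per degree of freedom 8.01 for Vehicle and 284 for TAK-931).

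The members and lists were chosen with earlier results of these data known. Named were the members, the 2 most abundant tested genes of each other list, a few fixed partners and the 5 genes of nearest pattern. Other genes were named after their values were seen. The list entry Vegfd was in the tables as Figf. Of the table symbols, 23350 were in GENCODE vM21, and 99.4% of these overlapped its position.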

Additional observations from a re-analysis of the deposited data

How the results depend on the processing

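The log2 fold changes of the 10 genes stayed positive under other scalings and filters, halved counts, no robust estimation, the replicate block, DESeq2 and limma-voom. Genes at an adjusted p under 0.05 were 144 with the replicate block and 1411 with DESeq2, against 0 in edgeR. Endothelial genes at this threshold were 2 with DESeq2 (Vwf and Eng), and those at an unadjusted p under 0.05 were 1 with limma-voom (Vwf), against 3. The replicate block left 0 endothelial genes past the adjusted threshold, with a lowest adjusted p of 0.118 and a median log2 fold change of 0.70. Deviations of same-numbered libraries correlated at 0.004 across genes, so the numbers are taken as names only. With each library left out in turn, the genes called over the whole table ran from 0 to 8424 and the endothelial genes from 0 to 10, those at an unadjusted p under 0.05 from 1 to 10, and the median log2 fold change from −0.055 without TAK-931-1 to 1.91 without TAK-931-2. Without TAK-931-1 the direction of 5 genes turned, and over the libraries left out they ran from −0.24 to 1.33 for Pecam1, −1.08 to 1.43 for Tek, −0.30 to 1.80 for Tie1, −0.67 to 1.52 for Emcn and −1.33 to 2.01 for Cldn5. Without Vehicle-1 or Vehicle-2, 1 endothelial gene (Vwf) was under an unadjusted p of 0.05. The cause of these differences was not tested. At 12 and 26 counts, the vehicle level of Vwf is the least certain, and its log2 fold change ran from 2.99 to 4.80 over the libraries left out.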
